A study of Sus scrofa with 35 samples.

Results

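Whole blood of F1 pigs was compared with the mid-parent value, the average of the mean levels in the parental breeds, on 35 arrays with 1 array per pig. All 35 samples of the series entered the comparison. They were 11 Creole (CR) pigs, a local breed of the Caribbean, 12 Large White (LW) pigs, a commercial European breed, and 12 F1 pigs of the cross LW × CR. All were castrated male growing pigs of the French Antilles, moved into a climatic room at 11 weeks of age, and the same diet was offered to all. Pigs of each breed were bled either in thermoneutral conditions at 24 °C (TN) or after heat stress (HS), which the sample labels give as 30 °C and the protocol text as 32 °C. There were 5 CR, 6 F1 and 6 LW pigs in TN and 6 pigs of each breed in HS. The methods of the study describe blocks of littermates within each breed, but the labels give neither litter, pen, sire nor dam, and which breed the mothers of the F1 pigs belonged to is not given in the sources used here. A standard error (SE) therefore treats littermates as independent animals, and p-values may be too small for levels that a litter shares. Pigs are numbered within a group only to name them.

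If alleles act additively, the level of a transcript in F1 pigs lies at the mid-parent value, and dominance shows as a shift toward one parental breed. Some genes do not follow this scheme by their inheritance. The mitochondrial genome, which encodes subunits of the respiratory chain, passes from the mother alone, and males carry a single X chromosome, also from the mother. Genes of the swine leukocyte antigen (SLA) complex, which present peptides to T cells, are among the most variable between animals. A probe of 60 bases reads both the amount of a transcript and how well its sequence pairs with the probe, and these cannot be told apart on an array. In whole blood, fewer cells of a type and less RNA per cell cannot be told apart either.

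Few probes departed from the mid-parent value. Of the 39072 probes with normalised log2 values, 28 differed at an adjusted p below 0.05 in limma, with the climates as a covariate, which is 0.0717% of the probes tested. F1 pigs were higher at 11 of them (0.0282%) and lower at 17 (0.0435%). At an unadjusted p below 0.05 there were 1167 probes. The count fell to 16 without the pig CR TN 3, to 17 without F1 HS 1 or F1 HS 6, and to 18 without F1 TN 1. The 28 probes had 26 distinct sequences. Their difference had the same sign within each of the 5 slides. For a probe with the median SE of 0.0965, a difference of 0.46 on the log2 scale was needed to pass the threshold, and less for a probe with a smaller SE. When the probes of a gene were averaged, 0 of 10152 genes passed in limma (290 at an unadjusted p below 0.05, smallest adjusted p 0.101).

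The largest departures were in mitochondrially encoded transcripts, where limma called 9 probes higher in F1 pigs and 0 lower (43 higher and 1 lower at an unadjusted p below 0.05). They lay in COX1 and COX2, which encode the catalytic subunits of cytochrome c oxidase, and in ND1 and ND2, which encode membrane subunits of complex I. At the COX1 probe A_72_P762153, the F1 pigs had log2 values from 11.29 through a median of 13.08 to 13.67. The CR pigs ranged from 6.41 through 8.52 to 12.61, and the LW pigs from 7.04 through 8.91 to 12.91. The difference from the mid-parent value was 3.62 ± 0.61 (log2, SE, n = 35 arrays, limma adjusted p = 0.00477). The F1 range overlapped the top of both parental ranges, because a few parental pigs had levels like those of the F1 pigs.

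These probes differed by few bases from neighbours on the same transcript that departed far less. The pairs below are shown because they share most of their bases, and the base that differs between the aligned parts is in capitals. Each sequence is the 60-base probe as the array files give it, 5′ to 3′.
COX1 A_72_P762153: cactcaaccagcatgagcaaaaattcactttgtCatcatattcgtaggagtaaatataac
COX1 A_72_P721538: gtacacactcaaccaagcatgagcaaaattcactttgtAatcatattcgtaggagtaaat
COX2 A_72_P746371: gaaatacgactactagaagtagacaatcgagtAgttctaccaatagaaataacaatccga
COX2 A_72_P751248: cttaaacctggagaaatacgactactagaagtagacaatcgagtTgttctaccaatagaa
ND2 A_72_P719508: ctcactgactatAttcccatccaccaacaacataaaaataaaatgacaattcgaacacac
ND2 A_72_P727968: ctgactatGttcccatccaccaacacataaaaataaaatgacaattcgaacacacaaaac

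The COX1 pair shared 53 of 54 aligned bases, with the substitution C34A counted from the 5′ end of the first probe and 2 further bases in gaps. The first probe departed by 3.62 and the second by 0.44 (adjusted p = 0.999). The COX2 pair shared 47 of 48 aligned bases, with the substitution A33T and no gap. Here the mid-parent difference was 3.26 ± 0.56 (limma adjusted p = 0.0054) at the first probe and 0.69 (adjusted p = 0.507) at the second. The ND2 pair shared 54 of 55 aligned bases, with the substitution A13G and 1 base in a gap. Both ND2 probes passed the threshold, with 2.90 ± 0.50 (adjusted p = 0.0054) and 1.23 ± 0.24 (adjusted p = 0.0299) in limma. In each pair, the probe with the larger departure also had the wider spread between parental pigs of 1 breed.

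**Figure D1:**
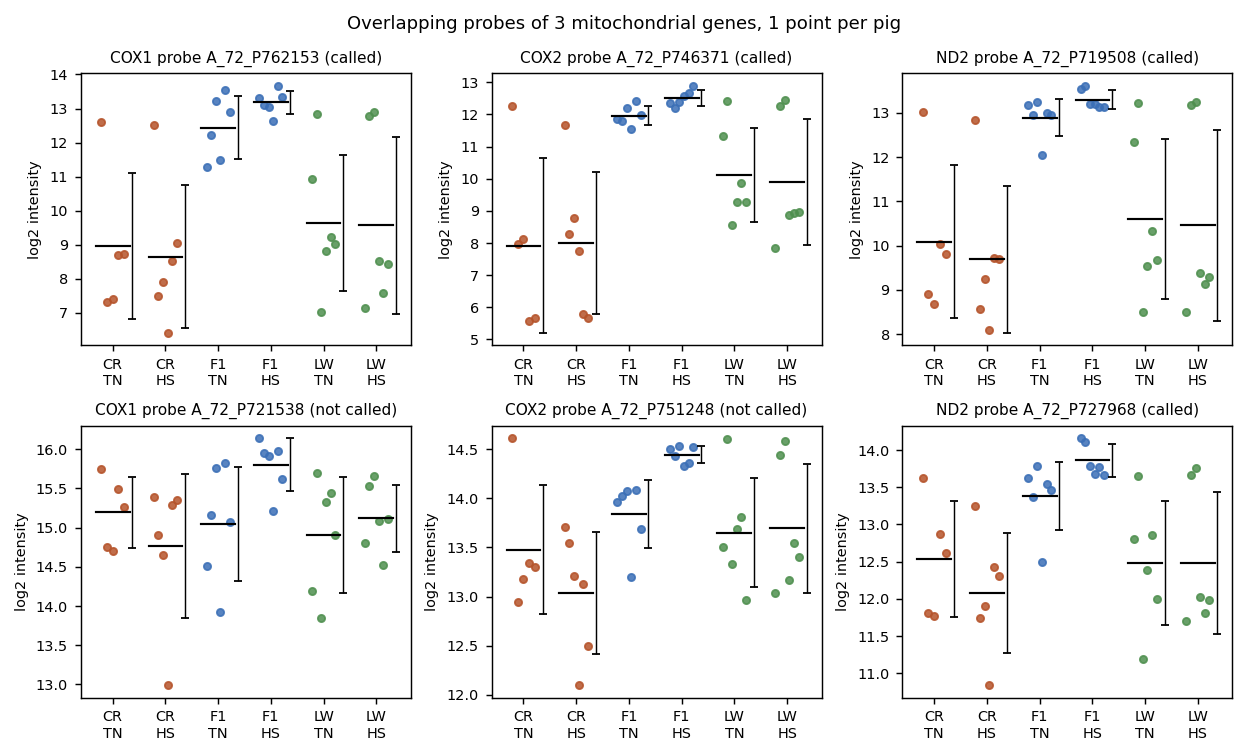
Normalised log2 intensity (vertical axis) of the 3 probe pairs in the 6 groups of breed and climate (horizontal axis), with 1 point per pig, horizontal lines for group means and bars for SD. In the upper row, all 12 F1 pigs lie at the level of the highest parental pigs, and most CR and LW pigs lie well below. In the lower row, the vertical scale is narrower and the groups overlap.

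At some of these probes, pigs of each parental breed lay on both sides of the widest gap between parental values. At the COX1 probe, the 23 parental pigs left their widest gap between 9.23 and 10.94, with 6 pigs above it and 17 below. The 6 upper pigs, 2 CR (TN 1 and HS 1) and 4 LW (TN 1, TN 2, HS 2 and HS 3), ranged from 10.94 to 12.91. All 12 F1 pigs lay on the upper side. The same 6 parental pigs lay above the widest gap at the ND2 probe A_72_P719508, where the gap was 2.01, and at the ND1 probe A_72_P745561, where it was 1.51, and all 12 F1 pigs were again on the upper side. At the ND1 probe the mid-parent difference was 2.60 ± 0.47 (limma adjusted p = 0.00797). A widest gap always divides the pigs into an upper and a lower set, and whether these were separate levels was not tested. Of the 9 called mitochondrial probes, 4 had 6 parental pigs above the gap, and the gap ranged from 0.50 to 2.01. Among the 118 other probes, 7 had a gap over 1.

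COX2 had a low level that only CR pigs showed. At the probe A_72_P746371, 4 CR pigs (TN 4, TN 5, HS 5 and HS 6) had log2 values of 5.57 to 5.81, and the other 19 parental pigs started 1.95 higher, at 7.76. The F1 pigs ranged from 11.56 to 12.90. The same 4 CR pigs were the lowest at the COX3 probe A_72_P760010, at 7.79 to 8.20 against at least 10.60 in the other 19 parental pigs and 11.41 to 12.87 in the F1 pigs. COX3, another core subunit of cytochrome c oxidase, had a mid-parent difference of 1.07 ± 0.41 at this probe, which did not pass the threshold (limma adjusted p = 0.999). No F1 pig had the low COX2 or COX3 level that these 4 CR pigs shared.

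The other mitochondrial calls were smaller. Probe A_72_P737152 of ND2 departed by 1.75 ± 0.32 (limma adjusted p = 0.00855) and A_72_P769233 of ND1 by 1.60 ± 0.30 (adjusted p = 0.0119). The ND1 probe A_72_P739924 (1.21 ± 0.25, adjusted p = 0.0472) and the ND2 probe A_72_P734766 (1.17 ± 0.25, adjusted p = 0.0499) passed limma's threshold narrowly, and each lost its call when any of 29 of the 35 arrays was left out. The 6 most significant mitochondrial probes kept theirs whichever array was left out. At the CYTB probe A_72_P355338, of the cytochrome b of complex III, the difference of 1.31 ± 0.28 did not pass (limma adjusted p = 0.0674).

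The mitochondrial transcripts as a whole lay near the mid-parent value with a small shift. Of 127 probes over the 13 protein-coding genes, 114 had a positive mid-parent difference, with a median of 0.26 on the log2 scale against -0.01 over all probes. The 118 probes that did not pass had a median of 0.25 and ranged from -0.51 to 1.31. Calls came from 4 of 12 ND2 probes, 3 of 20 ND1 probes, 1 of 5 COX2 probes and 1 of 25 COX1 probes. None of the 9 ATP6, 1 ATP8, 14 COX3, 21 CYTB, 3 ND3, 11 ND4, 1 ND4L, 3 ND5 and 2 ND6 probes was called. Of the 81 probes with a mean level of 13 or more, 0 were called by limma (20 higher and 1 lower at an unadjusted p below 0.05), and their median was 0.22. The median was 0.37 over the 41 probes with a mean level from 10 to 13 and 0.25 over the 5 below 10. The mean level is taken over all pigs, so low parental values pull it down where the departure is large. At the ND2 probe A_72_P719508, the F1 mean was 13.10 against 9.87 in CR and 10.53 in LW pigs. The lack of calls at 13 or more was thus partly set by this grouping and cannot show whether brighter probes depart less. Overlapping probes of a gene are not independent measurements.

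**Figure D2:**
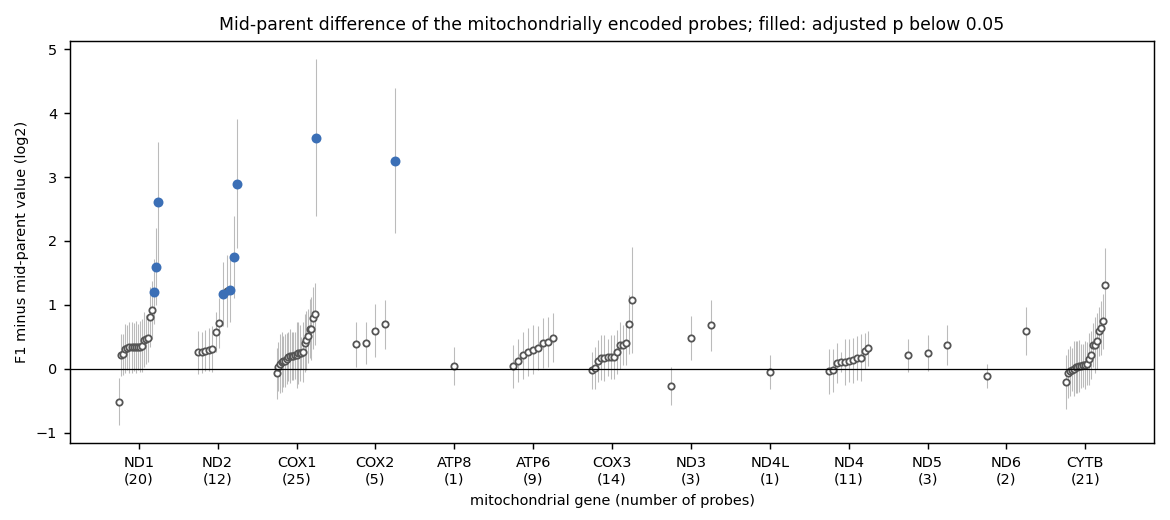
Mid-parent difference (log2, vertical axis) of the 127 mitochondrially encoded probes by gene, with bars for the 95% interval. Filled points passed the threshold, and the 9 of them lie in COX1, COX2, ND1 and ND2, up to 3.62, while open points range from -0.51 to 1.31.

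Nuclear genes for the same complexes were read as means over the probes of each gene and not probe by probe. Among 47 nuclear genes of oxidative phosphorylation, 0 passed in limma (2 lower at an unadjusted p below 0.05), 16 were positive and the median was -0.02. NDUFA1, an accessory subunit of complex I, had -0.43 ± 0.16, and COX7B, a small subunit of cytochrome c oxidase, had -0.36 ± 0.14 (both limma adjusted p = 0.996).

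MTRF1, a nuclear gene for a mitochondrial release factor that ends translation, lay below the mid-parent value in F1 pigs. At the probe A_72_P191081, F1 pigs ranged from 5.71 through 6.35 to 6.74, CR pigs from 6.40 through 6.88 to 7.10 and LW pigs from 6.42 through 6.92 to 7.10. The ranges overlapped slightly, and the difference from the mid-parent value was -0.49 ± 0.10 (limma adjusted p = 0.0288). The differences from each parental breed alone did not pass (-0.48 from CR, adjusted p = 0.0703, and -0.51 from LW, adjusted p = 0.0901). The mid-parent difference was -0.21 in TN pigs and -0.77 in HS pigs, and only the latter passed (adjusted p = 0.00572). Probe O7914, which shares 57 bases with the first, had -0.49 ± 0.10 (limma adjusted p = 0.0475), a call lost without any of 26 single arrays and under 3 of 12 alternatives. A spot series with the same 60 bases as O7914 had -0.41 ± 0.13 and did not pass in limma. The other 3 MTRF1 probes had differences of -0.04 to 0.06, so the lower level was not seen at all probes of the gene.

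In the SLA complex, 1 of 55 probes was higher in F1 pigs and 1 was lower, with a median of -0.03. The higher one, A_72_P124686 of the classical class I gene SLA-1, ranged from 7.54 through 8.75 to 10.09 in F1 pigs. CR pigs ranged from 7.11 through 7.89 to 8.36 and LW pigs from 6.48 through 7.64 to 8.40. Its mid-parent difference was 1.06 ± 0.22 (limma adjusted p = 0.0399). The other 6 SLA-1 probes lay between -0.52 and 0.04. The lower one, A_72_P237292, was the only probe of SLA-6, a nonclassical class I gene, with 8.25 to 9.84 in F1 pigs, 9.29 to 10.29 in CR pigs and 9.23 to 10.43 in LW pigs. The difference was -0.65 ± 0.13 (limma adjusted p = 0.0399), and it was of like size in TN (-0.67) and HS (-0.64) pigs. The SLA-1 call was lost without any of 23 single arrays and the SLA-6 call without any of 22.

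TSPAN7, an X-linked tetraspanin of the cell membrane, had F1 levels close to those of LW. These males carry a single X chromosome and so 1 allele of the gene, and the cause of the level was not tested. At the probe A_72_P166441, CR pigs ranged from 7.11 through 7.82 to 8.30, F1 pigs from 5.40 through 6.16 to 6.42 and LW pigs from 5.32 through 5.63 to 6.42. F1 and CR pigs did not overlap, and F1 and LW pigs covered almost the same range. That range was near background, with the probe well above it on 10 of 12 F1, 11 of 12 LW and 11 of 11 CR arrays. The F1 pigs lay 1.79 below the CR pigs (log2, limma adjusted p = 1.33e-10) and 0.27 above the LW pigs (adjusted p = 1), and -0.76 ± 0.12 from the mid-parent value (adjusted p = 0.00252). A probe with the same sequence (-0.80 ± 0.12, adjusted p = 0.00155) and A_72_P499239, which shares 57 of its bases (-0.68 ± 0.10, adjusted p = 0.00155), gave the same picture in limma. The second TSPAN7 probe of other sequence, O1351, had a mid-parent difference of 0.22 ± 0.11 and a difference between CR and LW of 0.04, so the contrast between breeds was not seen along the whole transcript.

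The other probes below the mid-parent value mostly lacked a gene name. Probe A_72_P015431 (-0.44 ± 0.07, limma adjusted p = 0.00243) was LW-like, with 6.62 to 7.22 in F1 pigs, 6.86 to 7.26 in LW pigs and 7.27 to 7.91 in CR pigs. A pair of probes with 1 shared sequence, OTTSUST00000000781 and OTTSUST00000000780, had -0.75 ± 0.12 and -0.71 ± 0.12 (limma adjusted p = 0.00341 and 0.00678). At the former, F1 pigs ranged from 11.36 to 13.13, below most CR pigs (12.48 to 13.58) and LW pigs (12.60 to 13.07). A_72_P015216 (-0.60 ± 0.10), A_72_P135376 (-0.64) and A_72_P103796 (-0.85) were also lower in F1 pigs. LOC100517007, at -1.01 ± 0.21 (limma adjusted p = 0.0399), was well above background on 2 of 12 F1 arrays, 10 of 11 CR arrays and 10 of 12 LW arrays, so its level in F1 pigs was mostly too dim to measure. This call was lost without any of 28 single arrays and under 5 of 12 alternatives, where the difference ranged from -2.66 to -0.71.

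OTTSUST00000001126, a probe without a gene name, was the only one beyond both parental breeds in the upward direction. It was well above background on 9 of 12 F1 arrays (6 of 6 in HS and 3 of 6 in TN), 1 of 11 CR arrays and 1 of 12 LW arrays. Only the F1 groups thus brought this probe through the filter on expressed probes. Its call, also under the alternatives, is conditional on a filter that was met by the group with the higher level. F1 pigs ranged from 4.98 to 6.23, against 4.90 to 5.29 in CR pigs and 4.82 to 5.32 in LW pigs. Since the parental pigs were nearly all at background, the size of its mid-parent difference depended on the processing. It was 0.60 ± 0.10 over both climates (limma adjusted p = 0.00414) and 0.35 to 1.68 under the alternatives, past the threshold in all 12. By climate it was 0.29 in TN and 0.91 in HS (limma adjusted p = 0.18 and 0.000622). Against the LW pigs in HS, where it was not well above background on any array, the level in F1 pigs in HS was at least 1.78-fold higher. OTTSUST00000000781 was the matching case in the downward direction, with F1 pigs 0.79 below CR (limma adjusted p = 0.00601) and 0.72 below LW (adjusted p = 0.0427).

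The second question was where F1 pigs stood at the probes that separated the parental breeds. CR and LW pigs differed at 421 probes in limma (1.08% of those tested), 223 higher in CR (0.571%) and 198 higher in LW (0.507%), of which 214 carried names of 155 genes. The position of the F1 mean was expressed on a scale with the LW mean at -1, the mid-parent value at 0 and the CR mean at 1. The median position over the 421 probes was -0.11, and the central 50% lay between -0.43 and 0.19. F1 pigs were nearer to LW at 240 probes (57.0%) and nearer to CR at 181. The F1 mean lay between -0.5 and 0.5 at 305 probes, below -0.5 at 87 and above 0.5 at 29. It lay outside both parental means at 16 probes. Of the 421 probes, 4 departed from the mid-parent value in limma. These were the 3 overlapping TSPAN7 probes and A_72_P015431.

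The median position was 0.01 with the mean of erythroid genes as a covariate. That median was taken over the 856 breed probes called in the fit with the covariate, which showed no lean toward LW. Because the set of probes differed from that of the main fit, it cannot show whether the lean at the main breed probes depended on the covariate. Without that covariate, at the 94 probes with a 2-fold or larger difference between CR and LW, the median position was -0.26, with 66 nearer to LW, 29 below -0.5 and 2 above 0.5. These counts are a description without a test, since probes of 1 gene and pigs of 1 litter are not independent.

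**Figure D3:**
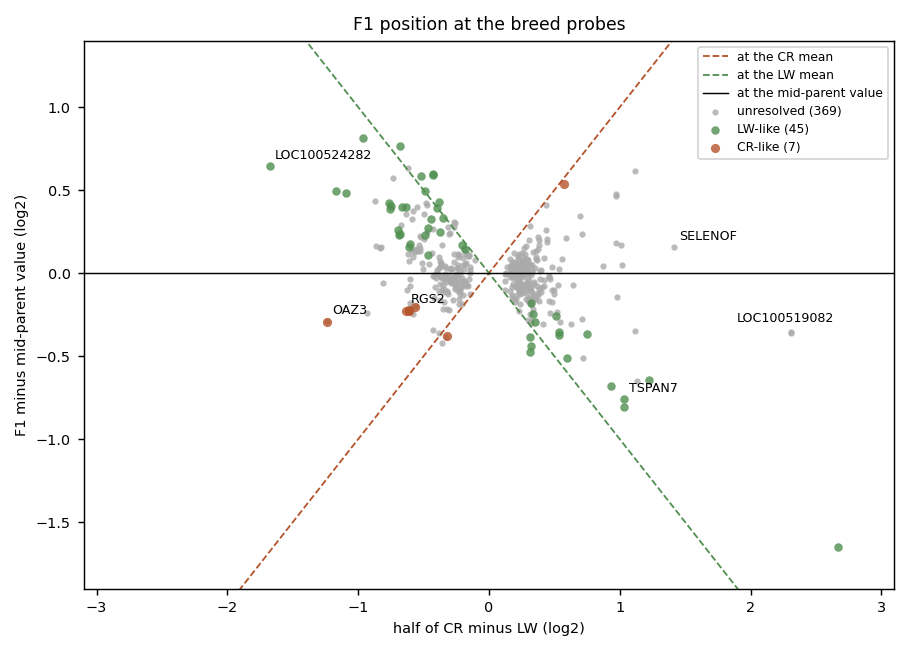
F1 minus the mid-parent value (log2, vertical axis) against 0.5 times the difference of CR minus LW (log2, horizontal axis) at the 421 breed probes, with 1 point per probe. Dashed lines mark an F1 mean at the CR or the LW mean and the horizontal line the mid-parent value, and most of the points lie between the dashed lines, near the horizontal one.

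By calls, F1 pigs differed from CR at 72 probes (0.184% of those tested), 42 higher (0.107%) and 30 lower (0.0768%) in F1. They differed from LW at 10 (0.0256%), 3 higher (0.00768%) and 7 lower (0.0179%). At 45 breed probes, F1 pigs differed from CR toward LW and not from LW, here called LW-like. At 7 they were CR-like by the same rule, at 0 they differed from both and lay between (by limma, as all calls here), and 369 were unresolved, with neither difference called. A difference that was not called does not show that F1 pigs equalled a parental breed. The 7 CR-like calls were not stable. Without the pig F1 HS 1, all calls of F1 minus LW were lost, and 0 CR-like probes were left. At an unadjusted p below 0.05 in limma, F1 pigs differed from CR at 1933 probes and from LW at 1751. These counts were closer to each other than the counts of calls.

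Among the LW-like probes, LOC100524282, annotated as similar to the ribosomal protein L37a, had a difference of CR minus LW of -3.36 (log2). CR pigs ranged from 5.16 to 10.30, F1 pigs from 8.41 to 11.02 and LW pigs from 9.79 to 11.29, with the F1 mean 2.32 above CR (limma adjusted p = 0.033), at position -0.38. LOC100335347 had 5.35 to 7.57 in CR pigs, 5.54 to 8.52 in F1 pigs and 7.39 to 8.72 in LW pigs. Its F1 mean was 1.58 above CR (limma adjusted p = 0.003) and 0.61 below LW, at position -0.44. Both probes thus carried the LW-like call although their F1 means were nearer to the mid-parent value than to LW. CHIT1, a chitinase secreted by activated macrophages, was 1.19 higher in F1 than in CR pigs (limma adjusted p = 0.013) and 0.34 lower than in LW pigs, at position -0.55. ACTA1, the actin of skeletal muscle, had 1 of 13 probes with a breed difference (-1.51), at which F1 pigs were 1.14 above CR (adjusted p = 0.035 in limma) and 0.37 below LW.

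Further LW-like genes were picked after their values were seen. KIT, a receptor of blood progenitors and mast cells whose alleles set coat colour in pigs, was set apart by -1.23 (CR minus LW, log2, limma adjusted p = 1.05e-08) at the probe A_72_P165111. F1 pigs were 0.77 above CR and 0.46 below LW there, so that the position of -0.26 was nearer to the mid-parent value than to LW. The other KIT probes with a breed difference had positions of -0.24 and -0.65. MYBPH, a protein of muscle thick filaments, TAOK3, a stress-activated kinase, and CMBL, a hydrolase, lay close to the LW mean or beyond it, with positions of -1.13, -1.37 and -0.99 at 1 probe each.

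The CR-like probes included OAZ3, an antizyme that lowers polyamine synthesis, and RGS2, a regulator of G-protein signalling. At the OAZ3 probe A_72_P437459, CR pigs ranged from 5.29 through 5.54 to 6.09, F1 pigs from 5.44 through 6.20 to 8.13 and LW pigs from 5.79 through 8.14 to 9.13. F1 pigs were 1.53 below LW (limma adjusted p = 0.043) and 0.95 above CR (adjusted p = 0.389), and the position was 0.24. The other OAZ3 probe with a large breed difference, O3277, had a position of 0.23 and was unresolved. For RGS2, all 3 probes differed between CR and LW. At A_72_P057121 the F1 pigs ranged from 10.49 to 12.36, against 10.53 to 11.37 in CR and 11.47 to 12.75 in LW pigs, and their mean was 0.86 below LW (limma adjusted p = 0.043) at position 0.35. The second CR-like RGS2 probe, A_72_P088221, lay at 0.37. Both genes thus carried the CR-like call although their F1 means were nearer to the mid-parent value than to CR.

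At some breed probes, an F1 mean between those of the parental breeds stood for F1 pigs of different levels. SELENOF, a selenoprotein of the endoplasmic reticulum, had 1 of 6 probes with a breed difference, at which LW pigs (4.80 to 5.25) were not well above background on any of 12 arrays. CR pigs (7.20 to 8.57) were at least 6.38-fold higher there. The F1 pigs fell into 5 pigs at 4.83 to 5.32, within or just above the LW range, and 7 pigs at 6.91 to 8.29, within or just below the CR range, for a position of 0.11. At LOC100519082, the named probe with the largest breed difference (4.62), 5 F1 pigs had 13.68 to 15.08 and 7 had 8.69 to 10.29. Here 1 CR pig (TN 1, 9.78) was with the low pigs and 1 LW pig (HS 4, 14.70) with the high ones, while the other CR pigs had 14.16 to 15.47 and the other LW pigs 8.70 to 9.90. VMO1, a secreted protein first known from egg yolk membranes, had a breed difference of 2.03 and an F1 position of 0.05, with 7 F1 pigs nearer to CR and 5 nearer to LW. At the single CYCS probe of 13 with a breed difference (1.94), for cytochrome c, the position was 0.48.

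**Figure D4:**
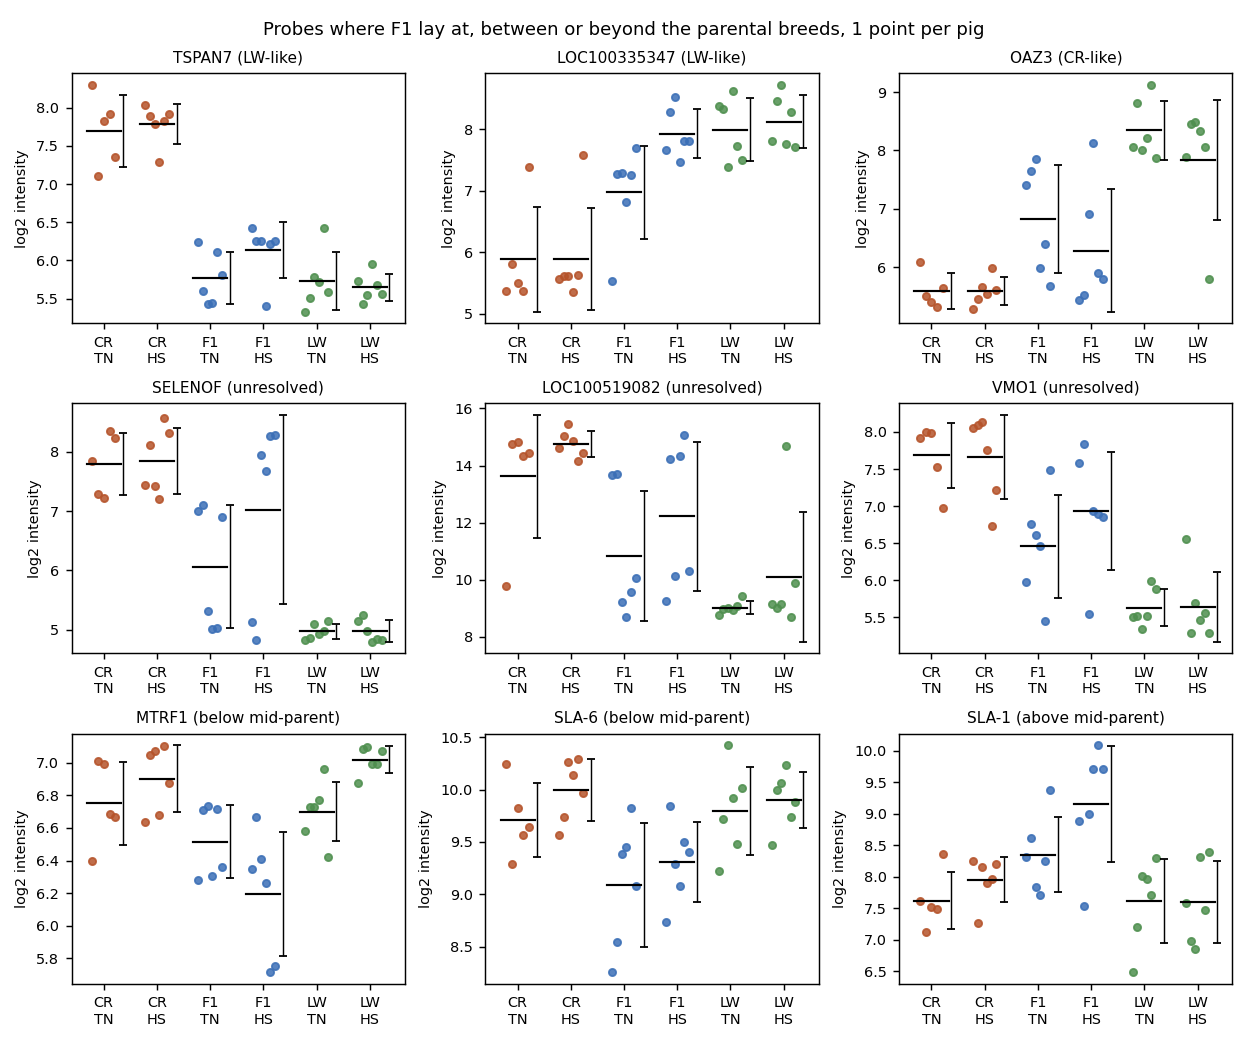
Normalised log2 intensity (vertical axis) of 9 probes in the 6 groups of breed and climate, with 1 point per pig, lines for group means and bars for SD. F1 pigs lie with LW pigs at TSPAN7, split between the parental levels at SELENOF and LOC100519082, and lie lower than most parental pigs at MTRF1 and SLA-6 and higher at SLA-1.

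This spread was counted at the 22 breed probes where CR and LW pigs did not overlap. Of 264 F1 values there, 137 (51.9%) lay within the LW range, 90 (34.1%) within the CR range, 22 (8.33%) in the gap between them and 15 (5.68%) outside both ranges. These values come from 12 pigs and are not independent. The 22 probes include 3 overlapping ones of TSPAN7, which count the same transcript repeatedly toward LW. F1 pigs lay on both sides of the midpoint at 18 of the 22 probes. At 4 probes all 12 F1 pigs were nearer to LW, which were the 3 TSPAN7 probes and A_72_P015431, and at 0 probes were all 12 nearer to CR. At the median of these 22 probes, the SD of F1 pigs was 1.31 times that of the parental pigs. A lack of overlap favours probes with a small parental SD, so this ratio was partly set by the choice of probes. The median ratio was 1.02 over all 421 breed probes and 1.06 over all probes. It was above 2 at 9 breed probes (2.14%) and 527 of all probes (1.35%).

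Each F1 pig was also placed by its median position between the parental means of its own climate. Breed probes were used where CR and LW differed enough in that climate and in the same direction as over both. There were 411 such probes for F1 pigs in TN and 419 in HS. F1 pigs in TN ranged from -0.42 to 0.07 (mean -0.20 ± 0.17, SD, n = 6) and those in HS from -0.38 to 0.23 (mean -0.12 ± 0.21, SD, n = 6). CR pigs, which define the scale, had 0.47 to 1.33 and LW pigs -1.29 to -0.79. No F1 pig overlapped a parental pig in this measure, and the F1 groups of both climates overlapped. The parental pigs had also been used to choose the probes, so their distance from the F1 pigs was partly set by that choice.

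Breed probes of X-linked genes were grouped after their values were seen. All 5 were nearer to LW, with TSPAN6 at -0.87, LAMP2 at -0.82, TSPAN7 at -0.74, PGK1 at -0.44 and PNPLA4 at -0.12. The median was -0.74, against -0.15 for 209 probes of other named genes, of which 58.9% were nearer to LW. Of the 5, TSPAN7 alone departed from the mid-parent value in limma.

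Within climates, 9 probes departed from the mid-parent value in TN pigs (0.023% of those tested, with 1 higher, 0.00256%, and 8 lower, 0.0205%) and 4 in HS pigs (0.0102%, with 3 higher, 0.00768%, and 1 lower, 0.00256%). TSPAN7 was the only named gene in TN (-0.94, limma adjusted p = 0.026), and its difference in HS was -0.58. In HS the lower probe was that of MTRF1. The 3 higher ones were OTTSUST00000001126 and a pair that the array files describe as KIAA1462 and the gene tables do not name, A_72_P401863 (0.56, limma adjusted p = 0.0457) and O13831 (0.58, adjusted p = 0.027). Parental levels of this pair were near background. In HS, each was well above it on 6 of 6 F1, 4 of 6 CR and 2 of 6 LW arrays. The test of the difference between climates called 0 probes in limma (8640 at an unadjusted p below 0.05, smallest adjusted p 0.111), so no departure was shown to depend on climate. Unadjusted p-values below 0.05 were found at 8509 probes (21.8%) in TN and 1468 (3.76%) in HS. The arrays of F1 pigs in TN were the dimmest on average, with a 75th percentile of the processed intensity of 112 to 186 (mean 149.9). Arrays of the other groups ranged from 145 to 329, with group means of 202 to 238. With that brightness as a covariate 0 probes were called in TN by limma (884 unadjusted), and 0 also without the 3 dimmest F1 arrays (1263 unadjusted). The TN count ranged from 0 (without F1 TN 2) to 37 (without F1 TN 6) over the omission of single arrays, and the HS count from 1 (without F1 HS 5) to 15 (without CR HS 1).

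Gene groups of blood function were read from the mean of the probes of each gene. In 19 lists, 0 genes passed in limma over both climates, in TN, in HS or for their difference, where 0 of all 10152 genes did. The medians over all genes were -0.004 over both climates, -0.039 in TN and 0.011 in HS (log2). Red cell genes were the group with the largest opposite medians, at 0.35 in TN and -0.31 in HS. Of 28 erythroid genes, 27 were positive in TN and 2 in HS, 13 were lower in the difference of HS minus TN at an unadjusted p below 0.05, and the smallest adjusted p was 0.104. Of all genes, 2418 (23.8%) had an unadjusted p below 0.05 for that difference. The mean of the list was 10.97 to 12.57 in F1 TN pigs and 9.64 to 11.13 in F1 HS pigs. In the parental breeds its group means were 11.25 (CR TN), 10.81 (CR HS), 11.37 (LW TN) and 11.12 (LW HS). With this mean as a covariate, the TN count of departing probes was 2 in place of 9.

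The T and B cell lists had lower medians in TN than in HS, with no test of the order. The median of 16 T cell genes was -0.16 in TN and 0.13 in HS, with all 16 positive in HS minus TN, and that of 13 B cell genes was -0.25 in TN and 0.02 in HS. The 18 genes of cytotoxic cells had the other order, with a median of 0.11 in TN and -0.06 in HS. The arrays of F1 pigs in TN were the dimmest on average, and no fit by gene had brightness as a covariate. Differences between climates in these lists and in the erythroid list thus cannot be told apart from array brightness. The medians of neutrophil (17 genes), monocyte (16) and platelet genes (13) lay between -0.06 and 0.06 in either climate. Defining markers of each blood cell type were detected, among them HBB, ALAS2, SLC4A1, S100A8, CD14, CD3E, CD79A, GNLY, NKG7 and ITGA2B, which were well above background on 35 of 35 arrays.

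**Figure D5:**
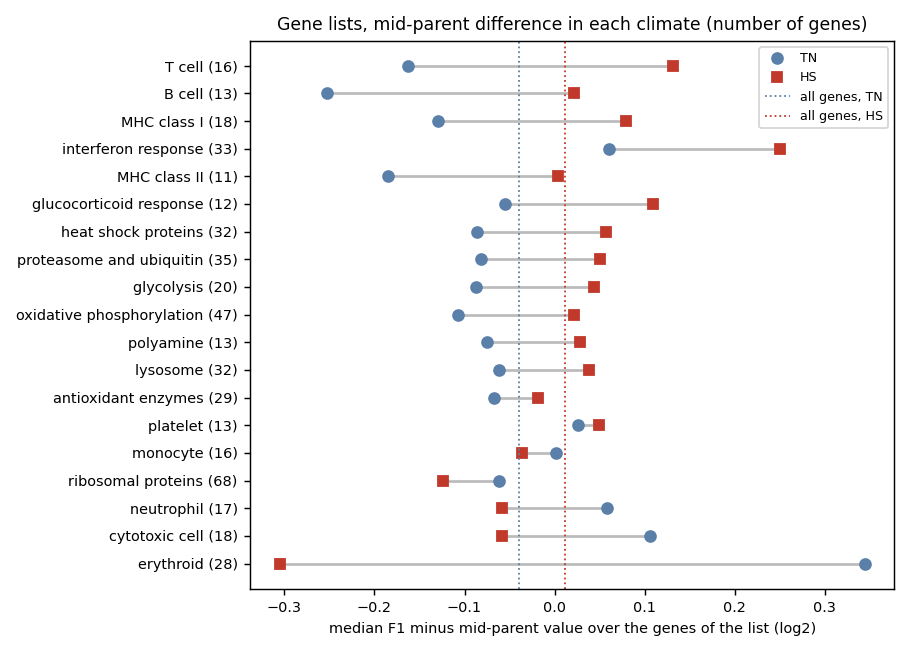
Median mid-parent difference (log2, horizontal axis) over the genes of each list (vertical axis, number of genes in parentheses), with circles for TN and squares for HS pigs, and dotted lines for the medians of all genes. The erythroid list has the widest distance between climates, from 0.35 in TN to -0.31 in HS.

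Genes of interferon response, which cells induce against viruses, had a median of 0.14 over both climates, with 26 of 33 genes positive. MX2, an interferon-induced GTPase, had 0.41 ± 0.18, XAF1 0.34 ± 0.17 and IFI44L 0.23 ± 0.11, and none passed in limma (adjusted p = 0.996 for each). Ribosomal proteins had a median of -0.08, with 8 of 68 genes positive. The median was -0.02 for 18 genes of MHC class I, in which PSMB8, a subunit of the immunoproteasome, had 0.48 ± 0.20 beside the lower SLA-6. It was -0.09 for 11 genes of MHC class II.

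The list medians of stress and metabolic genes lay close to the mid-parent value over both climates. Single genes spread more widely, among antioxidant enzymes from -0.46 to 0.22. The 32 heat shock genes had a median of 0.01, with HSPE1, the mitochondrial co-chaperone, at -0.24 ± 0.09 (limma adjusted p = 0.996). The 20 glycolysis genes had a median of -0.004, with the enolase ENO3 at 0.28 ± 0.09 (adjusted p = 0.996 in limma). The medians of antioxidant enzymes (29 genes), proteasome and ubiquitin (35), lysosome (32), glucocorticoid response (12) and polyamine genes (13) lay between -0.02 and 0.07.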

How the data were processed

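Blood RNA of 35 pigs was hybridised to single-colour Agilent arrays, read with Agilent Feature Extraction 10.10.1.1 per the file headers. The authors deposited the scanner intensities and a table of log2 values, made from median intensities, imported with limma, by quantile normalization in preprocessCore with a filter on expressed probes. That log2 table was used here. Log2 values recomputed from the deposited intensity files had a Pearson correlation of 0.99997 with it (median absolute difference 0.0235). The number of arrays limits the precision. Arrays of 1 group correlated at 0.945 to 0.992 across probes. Groups came from the labels.

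Of 39072 probes, 16711 were named by the symbol in the scanner files, 458 by an older symbol, 804 by accession, 1571 by Entrez gene number in pig gene tables of the assembly Sscrofa11.1, and 656 kept the file's name. The remaining 18872 had no gene name. Probes cannot be placed here on a genome, and no coordinates are given.

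Breed and temperature were fitted in limma 3.58.1 (lmFit, eBayes, R 4.3.3), with two-sided tests and Benjamini-Hochberg adjustment over all probes at 0.05. The mid-parent contrast was F1 minus the average of CR and LW. Contrasts within climates used 6 group means. The F1 position was the mid-parent difference divided by 0.5 times the difference of CR minus LW. That of a pig was the same measure taken from its own values and the parental means of its climate, without that pig. The random effects of the study for pen, slaughter, father and mother have no labels and could not be fitted. The fit was tested on simulated data. Named probes were those with a gene name called for the mid-parent contrast, 6 called probes without a name, the 5 with the largest breed difference per class, up to 5 per direction within climates, and up to 4 genes per list. A probe not well above background on every array of a group was given the bound of the lowest value well above background on each array. Members and lists were chosen with earlier results of these data known. Alternatives changed normalization, background correction, filter, slide, weights, model, covariates, variance prior and arrays. The alternatives of array brightness were chosen after seeing the data.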

Additional observations from a re-analysis of the deposited data

Results flagged for a closer look

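Single pigs stood apart from the others of their group in 34 of the 204 combinations of named probe or median position and group, by the size of the gap to the nearest pig relative to the range of the group. Chance marks about 1 in 20 groups, and overlapping probes repeat the same pig.

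The pig CR TN 1 was marked at 6 probes. At COX1 (A_72_P762153) it had a log2 value of 12.61 against 7.32 to 8.73 in the other CR TN pigs, and at ND1 (A_72_P745561) 12.35 against at most 9.35. At LOC100519082 it had 9.78, in the range of LW pigs, where the other CR TN pigs had at least 14.32. At RGS2 it was the highest of its group, with 11.37 at A_72_P057121 and 10.24 at A_72_P088221, and at OTTSUST00000000781 it had 13.58. The pig CR HS 1 shared the high mitochondrial level, with 12.83 at ND2 (A_72_P719508) against 8.10 to 9.72.

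The pig F1 TN 4 was the lowest of its group at 5 mitochondrial probes. Its values were 12.06 at A_72_P719508, 11.06 at A_72_P737152, 12.50 at A_72_P727968 and 11.22 at A_72_P734766, all of ND2, and 11.00 at A_72_P745561 of ND1. At A_72_P719508 the other F1 TN pigs lay between 12.95 and 13.24.

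The pig LW HS 6 had CR-like levels of OAZ3, 5.79 at A_72_P437459 and 5.75 at O3277, where the other LW HS pigs had at least 7.82. It had the highest RGS2 levels of its group, 12.75 and 11.67 at A_72_P057121 and A_72_P088221, in the direction away from CR. LW HS 4 had 14.70 at LOC100519082, in the range of CR pigs. LW HS 1 had 6.56 at VMO1 and LW TN 1 had 11.47 at RGS2 (A_72_P057121), each the value of its group nearest to CR.

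At LOC100335347, CR TN 5 (7.38) and CR HS 6 (7.57) lay at the lower edge of the LW range, and CR HS 6 was also high at ACTA1 (9.77 against at most 7.91). CR HS 5 had 5.93 at O3277 of OAZ3, and CR HS 2 had 7.27 at SLA-1. At TSPAN7, CR HS 4 was the lowest of its group at 7.28 and F1 HS 4 at 5.40. The probe of the same sequence gave 7.30 and 5.59 for these pigs, and 6.25 for LW TN 5. LOC100517007 had 6.36 in F1 TN 1, the highest of its group, and 4.71 in LW TN 6, the lowest. LW TN 6 also had 7.26 at A_72_P015431. At OTTSUST00000001126, F1 HS 2 had 5.40 and LW TN 3 had 5.32.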

How the results depend on the processing

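The count of probes departing from the mid-parent value over both climates (28) stayed between 24 and 37 under 11 of 12 alternatives and was 18 without the 3 dimmest F1 arrays in TN. It ranged from 16 to 32 when each array was left out in turn. The direction of the calls was less stable, with 11 higher and 17 lower in the main fit. With brightness as a covariate 25 were higher and 12 lower, and without the dimmest arrays 9 were higher and 9 lower. The count in TN (9) was 2 with the erythroid covariate, 0 with brightness as a covariate and 0 without the dimmest arrays, and ranged from 0 to 37 without single arrays. The count in HS (4) was 2 with slide as a block, with the erythroid covariate and without the dimmest arrays, and 8 with array weights, and ranged from 1 to 15 without single arrays. The difference between climates gave 0 probes, except 1 under scaling on the 75th percentile, and 0 without any single array. For CR minus LW (421), array weights gave 1097 and the erythroid covariate 856, and single omissions 299 to 474. For F1 minus CR (72), array weights gave 161 and the brightness covariate 109, and single omissions 57 to 95. The least stable count was that of F1 minus LW (10), with 6 after recomputed quantile normalization, 4 under scaling on the 75th percentile, 0 after normexp, 6 with the filter on a share of 0.5 of the arrays of a group, 2 with slide as a block, 54 with array weights, 16 with group means, 38 with the erythroid covariate and 23 with the brightness covariate, and 0 to 19 without single arrays. The median F1 position at breed probes (-0.11) ranged from -0.15 with array weights to 0.01 with the erythroid covariate, and from -0.18 to -0.06 without single arrays. Each such median was taken over the breed probes called in the same fit, so the probes differed between settings. The mean of the probes of each gene gave 0 genes in each alternative run, and 0 to 1 without single arrays. The causes were not tested.

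For the probes picked by the naming rules, the called mid-parent and CR minus LW differences were followed. None changed sign under any alternative. Of 430 comparisons, 400 stayed past the threshold, as did 1079 of 1260 with single arrays left out. All losses were of mid-parent calls. Other probes named in the text, such as those of KIT and KIAA1462, were not followed, and neither were the calls of F1 minus CR and F1 minus LW at single probes. The TSPAN7 probe A_72_P166441 passed over both climates in all alternatives but 1 (limma adjusted p = 0.0526 without the dimmest arrays). Its call in TN was lost in 5. No paired analysis was possible because the labels carry no replicate numbers and name no litter. For a probe with the median SE, a departure under about 0.46 on the log2 scale could not pass the threshold.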
